A study of Rattus norvegicus with 16 samples.

Results

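T and B lymphocyte genes were followed in lung and adipose tissue of 8 male Brown Norway rats. The genes were taken from a list of 38 symbols, 24 of T cells and 14 of B and plasma cells. A gene was measured where a probe of the array carried one of its RefSeq transcripts, and the brightest probe of a gene in each tissue, by its mean signal, was used. On this array 34 of the 38 genes had a probe, out of 16678 gene symbols with a probe in all. They were 23 T cell genes and 11 B and plasma cell genes. *Tcf7*, *Cd79a*, *Ms4a1* and *Jchain* had none, so that the signal subunit partner of *Cd79b*, the surface protein CD20 and the joining chain of secreted antibody were not measured.

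The HDM rats (n = 5) were sensitized at 7 weeks of age with weekly subcutaneous injections of 45 µg of house dust mite (HDM) in aluminum hydroxide over 3 weeks. They were then challenged through the nose with 120 µg of HDM in saline, 3 times per week for 3 weeks. The control rats (n = 3) received the same aluminum hydroxide adjuvant with saline and then intranasal saline, so that both groups carried the adjuvant and differed in the allergen. One array was run per rat and tissue on a 1-color Agilent rat design, with 50 ng of total RNA labeled with Cy3. All values below are log2 signals relative to the 75th percentile of the array, so that a difference of 1 is a 2-fold difference. Each tissue was hybridized on a slide of its own, so that tissue and slide cannot be told apart, and HDM rats 1 to 4 lay in another row of the slide than HDM rat 5 and the control rats. These are whole-tissue samples, in which fewer cells of a type and less RNA per cell cannot be told apart.

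T cells recognize peptides on MHC molecules through the T cell receptor, which signals through the CD3 chains. The coreceptor CD4 marks helper T cells and the coreceptor CD8 marks cytotoxic T cells, and a second signal through CD28 and related receptors decides how far the response goes. B cells recognize free antigen through surface antibody, which signals through CD79, and some of them become plasma cells, in which PAX5 is switched off and BLIMP1 and XBP1 build the antibody-secreting state. In allergic airway disease helper T cells of the type 2 kind, marked by the factor GATA3, drive B cells toward IgE.

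The surfactant and club cell genes that define lung were well above background on all 8 lung arrays (5 of 5 genes), and the genes that define adipocytes were well above background on all 8 adipose arrays (6 of 6). In the lungs 33 of the 34 lymphocyte genes were well above background on all 8 arrays and *Ctla4* on none. In adipose tissue 17 genes were well above background on all 8 arrays and 5 on none, which were *Cd5*, *Cd8b*, *Ccr7*, *Blk* and *Cr2*. *Ctla4* was well above background there on 1 of 5 HDM arrays and on none of the control arrays. Changes of these genes in these tissues were read from background signal, and no fold change is given for them. For 31 of the 34 genes the probe used lay on a curated transcript. For *Cd28*, *Icos* and *Cxcr5* it lay on a predicted transcript, and the curated-transcript probe of *Cxcr5* was well above background in neither tissue, while that of *Cd28* was so on 1 lung array and on no adipose array. *Irf4* had another probe on the same curated transcript. It was well above background on 2 of 5 HDM lung arrays, on no control lung array and on no adipose array. Whether the *Cd28*, *Cxcr5*, *Irf4*, *Tbx21* and *Pax5* probes measure the main mRNA was not tested.

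Promoter sites are shown first for *Cd8a* and *Gzmb*, the 2 genes whose groups did not overlap in adipose tissue, and for *Prf1*, which acts with *Gzmb*. RefSeq gives a window from 250 bases before to 50 bases after the transcript start (GRCr8), and 29 of the 38 genes have one. In these 300 bases 6 short motifs were searched on both strands. RUNX factors, which set the CD8 lineage, read TGTGGT, and ETS factors read AGGAAGT. The sites upstream of the start of *Gzmb* (granzyme B, a protease of cytotoxic granules), *Prf1* (perforin, which forms pores in target cells) and *Cd8a* (the CD8 alpha chain) follow, with 30 bases each on the strand of the gene and the motif in capitals.
Gzmb, RUNX, chr15:34462669-34462698, minus strand: tgggaccctaatACCACAtgctatgaaccc
Gzmb, RUNX, chr15:34462638-34462667, minus strand: accctatgctttTGTGGTcctgcaatgggc
Gzmb, AP-1, chr15:34462603-34462632, minus strand: gtggtggttctcTGAGTCActagctgtggg
Gzmb, RUNX, chr15:34462579-34462608, minus strand: tgtgggttctgcTGTGGTtacttcatggtt
Prf1, ETS, chr20:29788825-29788854, plus strand: ccttcacagctgACTTCCTgaaggctgtca
Prf1, RUNX, chr20:29788894-29788923, plus strand: tggggacctgtgACCACAatctgggggcag
Prf1, ETS, chr20:29788915-29788944, plus strand: tgggggcagggcAGGAAGTactaacgatat
Cd8a, GATA, chr4:104923914-104923943, plus strand: gcccctagagggTGATAActtcgaaaagga

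The matches of *Gzmb* began 217, 186, 151 and 127 bases before the start, those of *Prf1* 203, 134 and 113 bases before it, and that of *Cd8a* 190 bases before it. The RUNX letters stood in 6 of 20 T cell promoters (*Cd2*, *Cd28*, *Gzmb*, *Lat*, *Lck* and *Prf1*), in 0 of 9 B and plasma cell promoters and in 16.9% of all 27457 promoters. The ETS letters stood in 7 of 20 T cell promoters (*Cd247*, *Cd3e*, *Cd5*, *Icos*, *Lck*, *Prf1* and *Tcf7*), in 1 of 9 B and plasma cell promoters (*Cd79a*) and in 8.23% of all. The AP-1 letters TGAGTCA stood in 4.53% of all promoters and the GATA letters TGATAA in 8.89%, and among these genes in *Gzmb* for the former and in *Cd8a* and *Foxp3* for the latter. TGACGTCA, the cyclic AMP response element, stood in *Zap70* and in 1.91% of all, and the octamer ATGCAAAT in none of the 29 and in 1.64% of all. No motif overlapped another at a printed site. A match is a run of letters in this window and was not tested for binding.

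In the lungs lymphocyte genes differed little between HDM rats and control rats. None of the 34 passed the test (adjusted p below 0.05 and a fold change above 1.5), against 0.855% of all 45598 probes. The median log2 fold change, HDM over control, was 0.07 over the T cell genes and 0.03 over the B and plasma cell genes, beside 0.003 over all probes. The T cell genes were higher in HDM rats in 16 of 23 cases and the B and plasma cell genes in 6 of 11, which makes 22 of 34 (64.7%), beside 50.7% of all probes and 47.9% of all genes when each is read by its brightest probe. The groups did not overlap in 4 genes (11.8%), beside 9.58% of all probes. An unadjusted p below 0.05 was reached by 3 higher genes (8.82%), beside 5.25% of all probes, and by 1 lower gene (2.94%), beside 4.93%. These last shares are of few genes and lie near the background. For 25 of the 34 genes (73.5%) the 95% confidence interval of the change lay within a 1.5-fold change in either direction, beside 43.8% of all probes and 53.7% of all genes by their brightest probe.

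**Figure D1:**
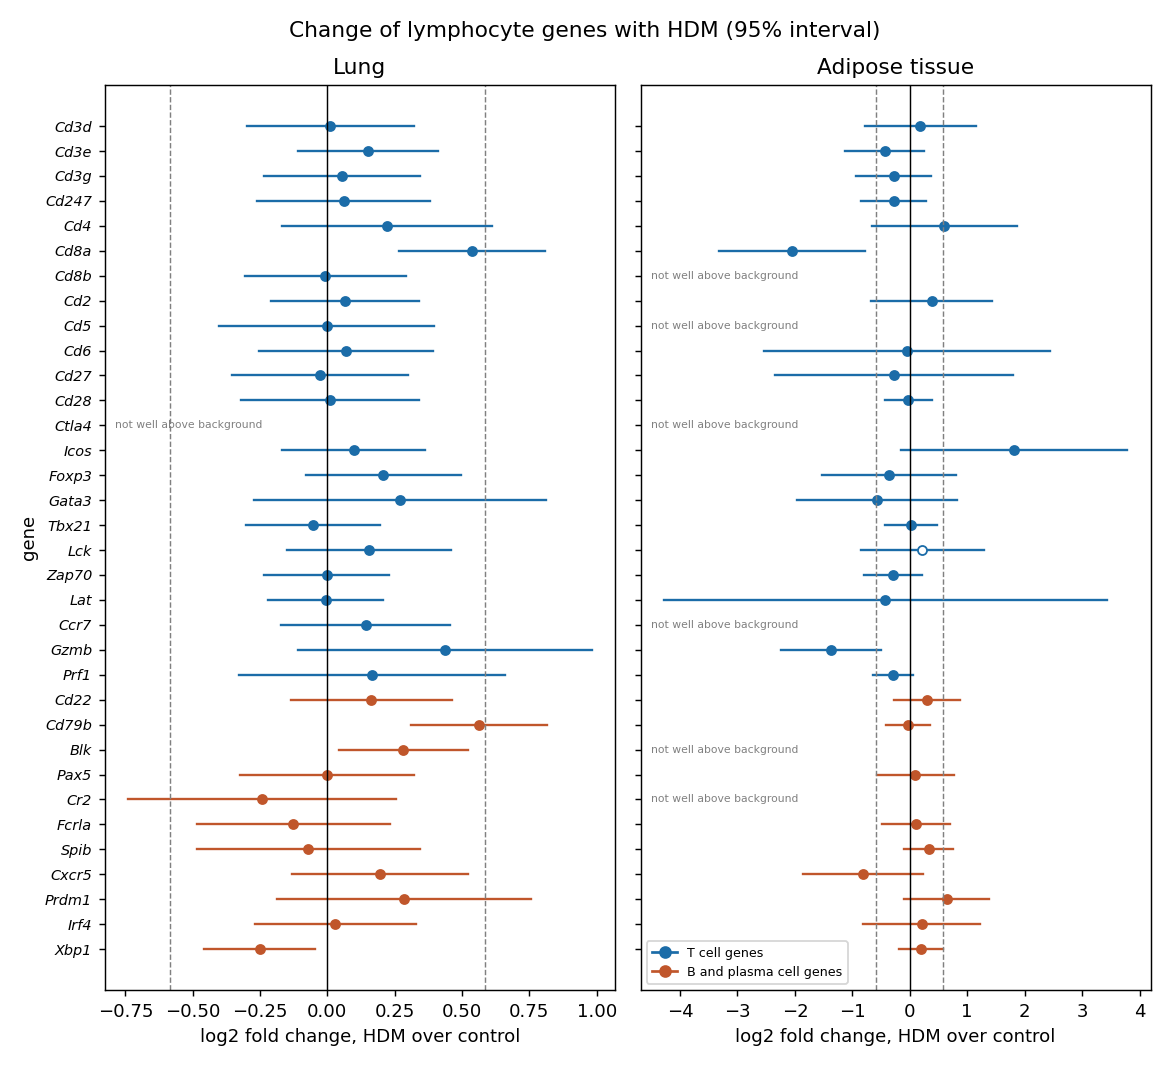
Log2 fold change, HDM rats over control rats, of the 34 lymphocyte genes in lung (left) and adipose tissue (right), on axes of different width. Points are limma estimates, bars are 95% confidence intervals (5 HDM rats, 3 control rats), dashed lines mark a 1.5-fold change, the open point (*Lck*) was well above background on fewer than 4 arrays, and genes not well above background in a group are named in gray. Lung estimates lie between −0.25 and 0.56, and adipose estimates between −2.05 and 1.82 with wider intervals.

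The CD3 chains, which are made by all mature T cells, were flat in the lungs. *Cd3d* was at 2.37, 2.58, 2.59, 2.17 and 2.25 in HDM rats 1 to 5 and at 2.41, 2.45 and 2.28 in the control rats. *Cd3e* was at −1.62, −1.37, −1.58, −1.52 and −1.66 in the HDM rats and at −1.85, −1.61 and −1.64 in the control rats. *Cd3g* was at 2.47, 2.43, 2.48, 2.06 and 2.35 against 2.35, 2.31 and 2.26. In all of these the groups overlapped. *Cd247*, the zeta chain, was at 1.27, 1.27, 1.13, 0.80 and 1.02 in the HDM rats and at 1.17, 1.00 and 0.95 in the control rats. The changes of the 4 chains were 0.01, 0.15, 0.05 and 0.06, with 95% intervals that all lay within a 1.5-fold change.

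The CD8 alpha chain was higher in the lungs of HDM rats. *Cd8a* was at −0.68, −0.95, −0.86, −0.74 and −0.60 in the HDM rats and at −1.28, −1.22 and −1.41 in the control rats, so that every HDM rat was above every control rat. The difference was 0.54 (SE 0.12, a 1.45-fold higher signal, 95% interval 1.20 to 1.75), with an unadjusted p of 0.0018 and a limma adjusted p of 0.102. *Cd8b*, the beta chain, was at −4.02, −3.61, −3.99, −3.75 and −4.00 against −3.94, −3.84 and −3.82, a difference of −0.01 (95% interval −0.31 to 0.29). The alpha chain is also made without the beta chain, by intraepithelial T cells, NK cells of the rat and some macrophages. Of the 8 NK cell markers, 8 were higher in the HDM lungs and *Xcl1*, a chemokine of NK cells and CD8 T cells, rose (log2 fold change 1.06, adjusted p = 0.0254). The mean level of these markers was between −1.26 and −0.77 in the HDM rats and between −1.54 and −1.30 in the control rats. Their part in the *Cd8a* value was not tested. *Cd4*, the helper coreceptor that rat macrophages also carry, was at −2.22, −2.18, −2.65, −1.89 and −2.12 in the HDM rats and at −2.50, −2.38 and −2.43 in the control rats. It overlapped between the groups, with a difference of 0.22 (95% interval −0.17 to 0.61).

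Among receptors of the second signal in the lungs, *Cd28* (the main costimulatory receptor, 0.01), *Icos* (a receptor of activated and follicular helper T cells, 0.10, and 0.35 by its measured curated-transcript probe) and *Cd27* (a receptor of the TNF receptor family, −0.03) lay close to 0 by the probe used. The other probes of *Cd27* and *Cd6*, well above background on all lung arrays, differed by 0.30 and −0.21. *Cd27* was at −1.60, −1.20, −1.59, −1.40 and −1.56 in HDM rats and at −1.65, −1.27 and −1.40 in control rats. The surface proteins *Cd2* (0.07), *Cd5* (−0.00) and *Cd6* (0.07), the homing receptor *Ccr7* (0.14) and the signaling genes *Lck* (0.15), *Zap70* (−0.00) and *Lat* (−0.01) had 95% intervals within a 1.5-fold change. *Lck* is the kinase that starts receptor signaling, *Zap70* the kinase it activates, and *Lat* the adaptor that *Zap70* phosphorylates.

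The lineage factors of helper T cells overlapped between the groups in the lungs. *Gata3*, the factor of the type 2 lineage that is also made by innate lymphoid cells, was at −1.52, −1.61, −2.05, −0.97 and −1.15 in HDM rats and at −1.77, −1.67 and −1.75 in control rats. HDM rat 3 was the lowest of all and HDM rats 4 and 5 were the highest, and the difference was 0.27 (95% interval −0.27 to 0.81). *Tbx21*, the factor of the type 1 lineage, was at 4.96, 4.90, 5.01, 4.81 and 4.86 against 5.08, 4.80 and 4.99, a difference of −0.05. *Foxp3*, the factor of regulatory T cells, differed by 0.21 (95% interval −0.08 to 0.50).

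Cytotoxic genes varied more among the HDM lungs. *Gzmb* was at 0.63, −0.00, 1.05, 0.33 and 0.68 in the HDM rats and at 0.25, 0.21 and −0.16 in the control rats. HDM rat 2 lay within the control range and the other 4 lay above it, and the difference was 0.44 (SE 0.24, adjusted p = 0.640). The other *Gzmb* probe differed by 0.45. *Prf1* differed by 0.17 (95% interval −0.33 to 0.66).

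**Figure D2:**
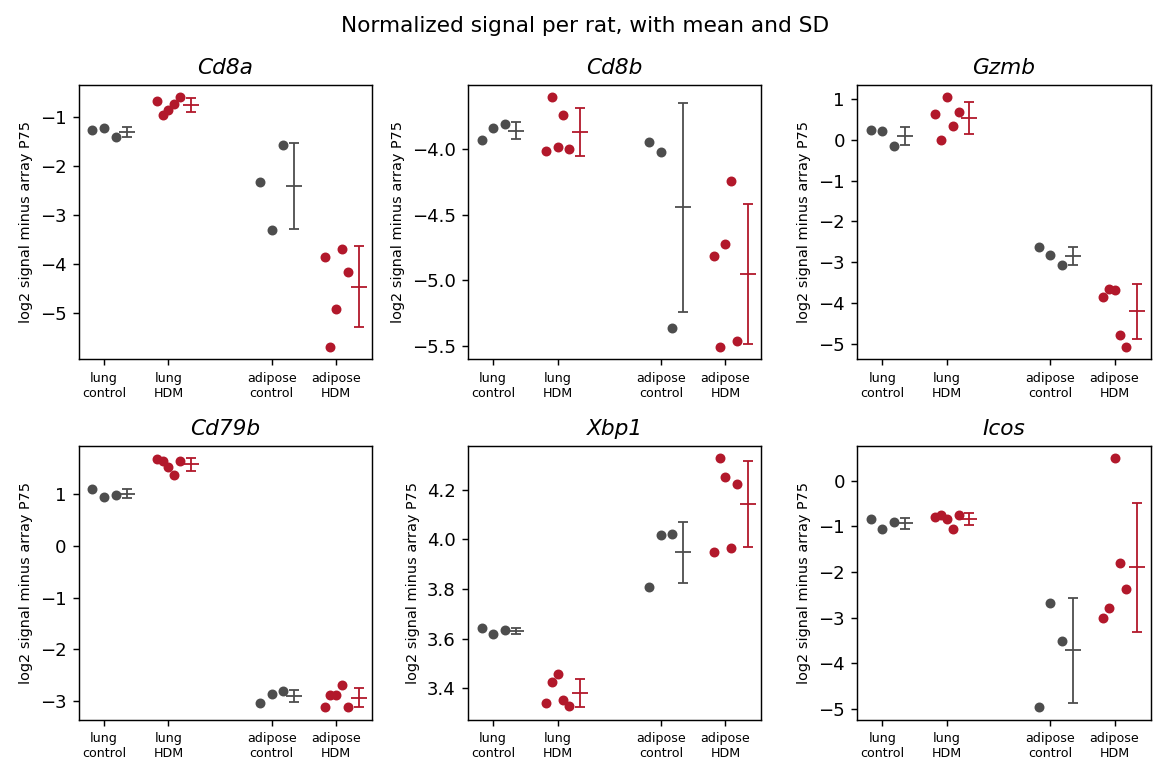
Log2 signal relative to the 75th percentile of the array for 6 genes, with a point per rat, in control rats (gray, n = 3) and HDM rats (red, n = 5) of both tissues. Beside the points stand the mean and the SD. *Cd8a*, *Cd79b* and *Xbp1* separate the groups in lung, *Cd8a* and *Gzmb* separate them in adipose tissue with HDM rats lower, and *Cd8b* in adipose tissue is at background.

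Among B cell genes of the lungs, the antigen receptor subunit *Cd79b* was higher in HDM rats. It was at 1.68, 1.64, 1.53, 1.38 and 1.64 in HDM rats and at 1.11, 0.94 and 0.99 in control rats, and the groups did not overlap. The difference was 0.56 (SE 0.11, a 1.48-fold higher signal, 95% interval 1.24 to 1.76), with an unadjusted p of 0.00092 and a limma adjusted p of 0.0715. With quantile normalization, with normexp background correction (followed by quantile normalization) or with array weights it passed the test, with changes of 0.59, 0.60 and 0.59 and adjusted p-values of 0.0304, 0.00709 and 0.0266. Over all alternatives its adjusted p lay between 0.00709 and 0.515. Within the slide row that held both groups, where HDM rat 5 met the control rats, the difference was 0.63 for *Cd79b* and 0.70 for *Cd8a*, with adjusted p-values of 0.515 and 0.437.

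*Blk*, a kinase of the B cell receptor, was at −2.51, −2.56, −2.78, −2.52 and −2.64 in HDM lungs and at −2.94, −2.87 and −2.84 in control lungs. The groups did not overlap, with a difference of 0.28 (SE 0.10, unadjusted p = 0.027, limma adjusted p = 0.381). The receptors *Cd22* (an inhibitor of B cell receptor signaling, 0.16) and *Cxcr5* (the receptor that leads B cells to follicles, 0.20) overlapped between the groups. So did the factor *Pax5*, which keeps B cell identity (−0.00).

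Other B cell genes were lower in part of the HDM lungs. *Cr2*, the complement receptor of mature and follicular B cells, was at −3.38, −3.59, −4.14, −3.99 and −3.34 in HDM rats and at −3.31, −3.63 and −3.40 in control rats. HDM rats 3 and 4 lay below every other rat, and the difference was −0.24 (95% interval −0.74 to 0.25). *Fcrla*, an Fc receptor-like protein inside B cells, was at 2.01, 1.71, 1.69, 1.48 and 1.46 against 1.95, 1.80 and 1.63, a difference of −0.13. *Spib*, an ETS factor of B cells, differed by −0.07. HDM rats 3 and 4 were each the lowest of their group in 4 of the 11 B and plasma cell genes. These 2 rats also had the lowest mean adipocyte marker level of the HDM lungs (−3.46 and −3.33, beside −1.96, −1.37 and −0.70 in HDM rats 1, 2 and 5 and −2.98, −3.85 and −1.65 in the control rats), and its part in the values was not tested.

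The genes of the plasma cell state did not move one way in the lungs. *Xbp1*, the factor of the secretory machinery, was at 3.34, 3.42, 3.46, 3.35 and 3.33 in HDM rats and at 3.64, 3.62 and 3.64 in control rats. Every HDM rat was below every control rat, and the difference was −0.25 (SE 0.09, a 1.19-fold lower signal, unadjusted p = 0.023, limma adjusted p = 0.359). *Prdm1*, which encodes BLIMP1 and is also made by activated T cells and macrophages, was at −0.90, −0.96, −1.61, −0.72 and −0.96 against −1.37, −1.12 and −1.45. HDM rat 3 was the lowest rat and the other 4 HDM rats were the highest, and the difference was 0.29 (adjusted p = 0.786). *Irf4*, a factor of plasma cells and activated T cells, differed by 0.03 by the probe used. *Xbp1* is made in every secretory cell, and epithelial markers were lower in the HDM lungs in 6 of 6 genes (median −0.16), with a mean level between 5.85 and 5.98 in HDM rats and between 6.01 and 6.09 in control rats. Their part in the *Xbp1* value was not tested.

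The widest marker shift beside these values was that of neutrophils. Of 8 neutrophil markers, 7 rose in the lungs (median log2 fold change 2.84 over the 8), led by *S100a8* (4.46, adjusted p = 0.000736) and *S100a9* (4.09, adjusted p = 0.000376), and their mean level was between 0.91 and 1.38 in HDM rats and between −1.97 and −1.56 in control rats. The 9 macrophage and dendritic cell markers had a median change of 0.14 and none passed the test.

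Further genes of the same pathways were read from lists beside the 34. Of 24 other T cell genes in the lungs none passed the test, 16 were higher in HDM rats and the median change was 0.07. At the upper end *Gzma*, a granzyme, differed by 0.45, while *Pdcd1* (an inhibitory receptor) and *Trat1* (an adaptor of the T cell receptor) were well above background on 2 of 5 HDM arrays each and on no control array. At the lower end were *Cxcr3* (a homing receptor of type 1 and cytotoxic T cells, −0.54, adjusted p = 0.219), *Il7r* (the interleukin 7 receptor, −0.40) and *Ccr4*, which was well above background on no array. Of 25 other B and plasma cell genes none passed the test, 16 were higher and the median change was 0.12. *Cd37* (a tetraspanin of B cells, 0.60, adjusted p = 0.0721), *Btk* (the kinase that relays the B cell receptor signal, 0.51, adjusted p = 0.0784) and *Bank1* (a B cell scaffold protein, 0.51, adjusted p = 0.23) were the highest, and *Btk* is also made by myeloid cells. *Derl3*, a gene of the secretory stress response in plasma cells, was the lowest (−0.76, adjusted p = 0.0564), followed by *Bach2* (−0.34) and *Tnfrsf17* (−0.23).

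Of 17 lymphoid chemokines and cytokines none passed both thresholds in the lungs. *Ltb*, which encodes lymphotoxin beta and helps to build lymphoid tissue, was at 3.06, 3.04, 2.99, 3.00 and 3.07 in HDM rats and at 2.59, 2.40 and 2.36 in control rats. Its adjusted p was 0.0441 and its log2 fold change of 0.58 fell just short of 1.5-fold. *Cxcl10* (0.75) and *Cxcl11* (0.55), ligands of CXCR3, were the other 2 of the 3 highest, and *Cxcl13* (−0.45), *Ccl20* (−0.43) and *Ccl19* (−0.41) the lowest. The 5 lymph node and lymphatic markers were lower in HDM lungs in 5 of 5 cases (median −0.41), with a mean level between 2.61 and 3.30 in HDM rats and between 3.28 and 3.65 in control rats. Their part in the lymphocyte values was not tested.

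**Figure D3:**
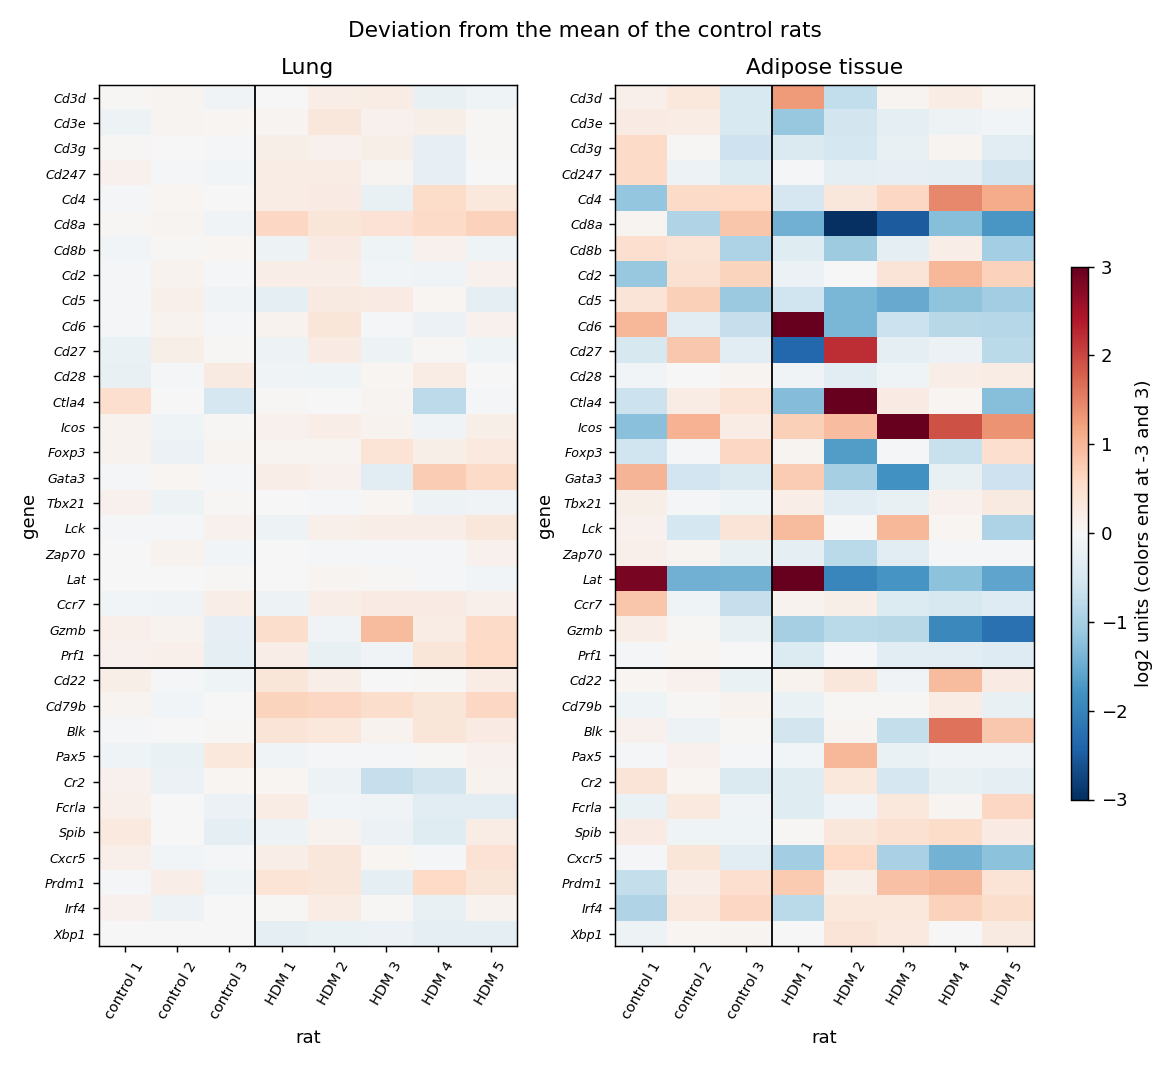
Deviation of each array from the mean of the control rats, in log2 units, for the 34 genes (rows; T cell genes above the horizontal line, B and plasma cell genes below it) and the 8 rats (columns) in lung and adipose tissue. Colors end at −3 and 3. The lung panel is pale, with *Cd8a* and *Cd79b* positive in all 5 HDM rats, and the adipose panel shows single arrays that stand apart, such as HDM rat 1 and control rat 1 for *Lat* and HDM rat 2 for *Ctla4*.

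In adipose tissue the lymphocyte genes varied more from rat to rat than in the lungs. The median SD within the HDM group was 0.67 over the T cell genes and 0.38 over the B and plasma cell genes, beside 0.18 and 0.16 in the lungs. Over all genes by their brightest probe it was 0.33 in adipose tissue and 0.23 in the lungs. Of the 23 T cell genes, 9 were well above background on all adipose arrays, and the 0.67 includes genes at background. None of the 34 genes passed the test, and neither did any probe of the array (0% of 45598). At an unadjusted p below 0.05 none was higher, beside 1.02% of all probes, and 3 were lower (8.82%), beside 8.88%, and these were *Cd8a*, *Gzmb* and *Cd5*, the last at background signal. The groups did not overlap in 2 genes (5.88%), beside 6.22% of all probes. In 4 genes (11.8%) the 95% interval lay within a 1.5-fold change, beside 16.4% of all probes and 22.9% of all genes by their brightest probe.

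T cell genes and B and plasma cell genes leaned to different sides in adipose tissue, the T cell genes to the same side as all probes. The T cell genes were lower in HDM rats in 16 of 23 cases, with a median change of −0.28, and 30.4% of them were higher, beside 35.8% of all probes. The B and plasma cell genes were higher in 8 of 11 cases (72.7%), with a median of 0.19. Together 15 of 34 (44.1%) were higher, beside 35.8% of all probes and 44.0% of all genes by their brightest probe, a share near the members' own. The median change was −0.15 over all probes and −0.05 over all genes. Among the 28 genes well above background on at least 1 array of each group, 13 of 19 T cell genes were lower and 7 of 9 B and plasma cell genes were higher, with the same medians. The level of this change depended on the scaling. With arrays scaled to their median, the medians were 0.01 for T cell genes, 0.49 for B and plasma cell genes and 0.14 for all probes. The T cell median was −0.05 without HDM rat 1 and control rat 1 and −0.07 without control rat 1 alone. The mean over the T cell genes was −2.14, −2.56, −2.44, −2.37 and −2.64 in HDM rats 1 to 5 and −2.06, −2.18 and −2.41 in the control rats, and that over the B and plasma cell genes was −2.27, −1.73, −2.06, −1.73 and −1.92 against −2.16, −1.92 and −2.03. In both the groups overlapped. In the lungs the T cell mean was between −0.67 and −0.60 in HDM rats and between −0.78 and −0.72 in control rats, which did not overlap, and the B and plasma cell mean was between −0.26 and −0.02 and between −0.24 and −0.11.

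*Cd8a* had the lowest change of all 34 genes in adipose tissue. It was at −3.85, −5.68, −4.91, −3.70 and −4.16 in HDM rats and at −2.33, −3.32 and −1.58 in control rats. Every HDM rat was below every control rat, and the probe was well above background on 2 of 5 HDM arrays and on 3 of 3 control arrays. The difference was −2.05 (SE 0.55, a 4.14-fold lower signal), with an unadjusted p of 0.0057 and a limma adjusted p of 0.343. Without HDM rat 1 and control rat 1 it was −2.16 (adjusted p = 0.647), and when single rats were dropped it ranged from −2.50 to −1.64. It was −1.29 with array weights and −0.42 with normexp background correction. The latter adds an offset of 50 to each intensity, which narrows log2 differences of dim signals. The 75th percentile of the adipose arrays lay between 111 and 240.

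*Gzmb* was the other gene whose groups did not overlap in adipose tissue. It was at −3.85, −3.66, −3.68, −4.78 and −5.07 in HDM rats and at −2.64, −2.81 and −3.07 in control rats, well above background on 2 of 5 HDM arrays and 3 of 3 control arrays. The difference was −1.37 (SE 0.38, a 2.58-fold lower signal, unadjusted p = 0.0069, limma adjusted p = 0.353), and the other *Gzmb* probe differed by −0.84. The difference was −0.19 with normexp. Within the slide row that held both groups, where only HDM rat 5 met the control rats, it was −2.23. *Prf1* was well above background on all arrays and differed by −0.30 (95% interval −0.65 to 0.05). Of the 8 NK cell markers 7 were lower in HDM adipose tissue (median −0.61), led by *Gzmc* (−2.56, adjusted p = 0.478). Their mean level was between −3.46 and −2.64 in HDM rats. It was −1.57 in control rat 1, and −2.92 and −2.70 in control rats 2 and 3, which lay within the HDM range. Of 24 other T cell genes 19 were lower (median −0.34) and none passed the test, while 35.8% of all probes were higher. Of the 24, 9 were well above background on all 8 arrays and 6 on none. The lowest were *Gzma* (−1.50), *Ccr6* (−1.36) and *Skap1* (−0.94) and the highest *Vav1* (0.69), *Prkcq* (0.26) and *Lcp2* (0.20). *Gzma* was at 1.75 in control rat 1 and at −1.43 and −1.52 in control rats 2 and 3. *Ccr6* was at −1.70 in HDM rat 1 and at −0.65 in control rat 1, and between −4.99 and −3.32 in the other rats. The part of NK cells in the *Cd8a* and *Gzmb* values was not tested. Neutrophil markers did not overlap in their mean level, which was between −2.65 and −1.58 in HDM adipose tissue and between −4.03 and −3.23 in control adipose tissue, and none of the 8 passed the test.

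The CD3 chains overlapped between the groups in adipose tissue. *Cd3d* was at 1.22, −0.79, 0.03, 0.16 and −0.01 in HDM rats and at 0.09, 0.25 and −0.51 in control rats, a difference of 0.18. *Cd3e* was at −4.04, −3.45, −3.18, −3.05 and −2.99 against −2.65, −2.69 and −3.37, a difference of −0.44. Their intervals reached beyond a 1.5-fold change, from −0.79 to 1.15 and from −1.12 to 0.24. *Cd3g* was at −0.35, −0.44, −0.14, 0.16 and −0.22 against 0.67, 0.11 and −0.53, and *Cd247* at −0.79, −1.04, −0.98, −1.01 and −1.30 against −0.17, −0.91 and −1.16, both with a difference of −0.28. For *Cd3g* and *Cd247* the sign turned with arrays scaled to their median (0.01 and 0.02) and without control rat 1 (0.01 and 0.01). *Cd4* was at −3.01, −2.17, −1.88, −1.07 and −1.39 in HDM rats and at −3.67, −1.94 and −1.91 in control rats, a difference of 0.60 (95% interval −0.66 to 1.87) that was 0.02 without control rat 1. Macrophage and dendritic cell markers were higher in HDM adipose tissue in 9 of 9 genes (median 0.77, none past the test), with a mean level between 1.04 and 2.50 in HDM rats and between 0.42 and 1.65 in control rats. HDM rat 4 was the highest and control rat 1 the lowest in both *Cd4* and this mean, and the part of macrophages in *Cd4* was not tested.

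*Icos* had the highest change in adipose tissue. It was at −3.00, −2.79, 0.49, −1.81 and −2.36 in HDM rats and at −4.96, −2.68 and −3.50 in control rats. HDM rat 3 stood apart, control rat 2 lay within the HDM range, and the difference was 1.82 (SE 0.85, adjusted p = 0.538). It was 1.20 without control rat 1, 0.99 over the mean of its probes and 0.59 with normexp. Of its other 2 probes, 1 had a mean of −4.31 in HDM rats, where 3 of 5 arrays were well above background, and of −5.62 in control rats, where none was (unadjusted p = 0.0027, limma adjusted p = 0.292), and the other was well above background nowhere. *Cd2* was at −4.91, −4.74, −4.33, −3.72 and −4.04 against −5.86, −4.26 and −4.06, a difference of 0.38. *Gata3* was at −1.95, −3.71, −4.52, −2.93 and −3.33 against −1.70, −3.28 and −3.16, a difference of −0.57 (95% interval −1.96 to 0.82).

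Among B and plasma cell genes of adipose tissue, *Prdm1* was highest, at −4.05, −4.66, −3.96, −3.87 and −4.43 in HDM rats and −5.54, −4.64 and −4.32 in control rats. The difference was 0.64 (SE 0.32, adjusted p = 0.561). It was 0.29 without control rat 1 and 0.14 with normexp. *Spib* was at −2.19, −1.87, −1.76, −1.67 and −1.97 against −1.97, −2.34 and −2.34, a difference of 0.33 (95% interval −0.09 to 0.75). *Cd22* was at −2.07, −1.83, −2.26, −1.22 and −1.93 against −2.10, −2.03 and −2.36, a difference of 0.30. In each of these 3 genes the groups overlapped.

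At the lower end *Cxcr5* was at −1.20, 0.43, −1.13, −1.57 and −1.39 in HDM rats and at −0.20, 0.20 and −0.47 in control rats. HDM rat 2 was above all control rats and the other 4 HDM rats were below them, and the difference was −0.81 (SE 0.45, adjusted p = 0.610). *Cd79b*, which separated the groups in the lungs, was at −3.11, −2.87, −2.88, −2.68 and −3.12 against −3.04, −2.87 and −2.81, a difference of −0.03 (95% interval −0.41 to 0.35). *Pax5* was at −0.14, 0.94, −0.26, −0.15 and −0.17 against −0.11, 0.07 and −0.11, a difference of 0.10 that stood on HDM rat 2. *Xbp1* differed by 0.19 (95% interval −0.18 to 0.57). Of 25 other B and plasma cell genes 13 were higher (median 0.09) and none passed the test. At the upper end were *Btk* (0.89) and *Cd37* (0.66). The lowest were *Pou2af1* (−1.48), *Pou2f2* (−1.02) and *Plcg2* (−0.94).

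Of the signaling genes, *Lat* and the surface receptor *Cd6* set 2 adipose arrays apart by the probes used. *Lat* was at 3.31 in HDM rat 1 and at 1.78 in control rat 1, and between −3.03 and −2.31 in the other 6 rats. *Cd6* was at 3.19 and 0.76 in these 2 rats and between −1.62 and −0.57 in the other 6. The other *Cd6* probe was well above background on 5 of 5 HDM and 3 of 3 control arrays. It had means of −2.22 and −2.25 in the HDM and control rats and differed by 0.02. The mean level of 6 epithelial markers was −0.15 in HDM rat 1 and 0.08 in control rat 1, and between −4.13 and −1.18 in the others, with *Epcam* and *Cdh1* well above background on 5 and 4 of the 8 arrays. The part of epithelial tissue in *Lat* and *Cd6* was not tested. By the probes used, one rat of each group was high. On these probes the changes of *Lat* (−0.43, 95% interval −4.28 to 3.43) and *Cd6* (−0.05, −2.54 to 2.44) were hardly bounded.

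**Figure D4:**
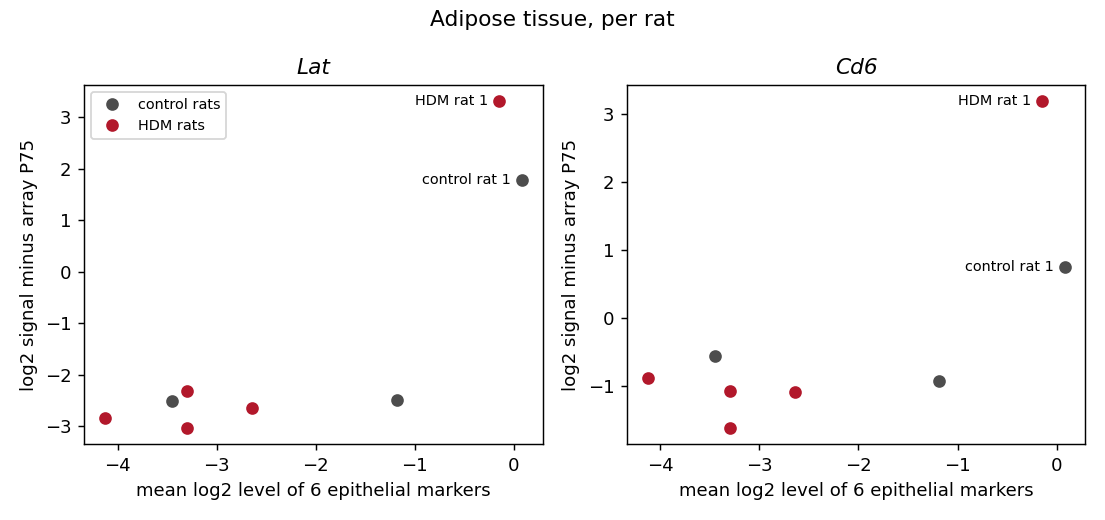
Log2 signal relative to the 75th percentile of the array of *Lat* (left) and *Cd6* (right) in adipose tissue against the mean level of 6 epithelial markers on the same scale, with a point per rat (gray, 3 control rats; red, 5 HDM rats). HDM rat 1 and control rat 1 stand at the upper right, with *Lat* at 3.31 and 1.78 and marker means of −0.15 and 0.08. The *Cd6* values are those of its brightest probe only.

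The change in lung was then set against the change in adipose tissue within the same rats. None of the 34 genes passed this test (limma on lung minus adipose signal per rat, adjusted p below 0.05), beside 0.00219% of all probes. An unadjusted p below 0.05 with the higher change in lung was reached by 5 of the 34 genes, beside 6.34% of all probes. With the lower change in lung it was reached by 1 of the 34, *Xbp1* (−0.45), beside 1.41%. The widest difference was that of *Cd8a*, 2.59 (SE 0.53, unadjusted p = 0.0013, adjusted p = 0.346), from 0.54 in lung and −2.05 in adipose tissue. *Gzmb* followed with 1.81 (SE 0.41, unadjusted p = 0.0022, adjusted p = 0.376). With normexp these differences were 0.81 and 0.55. The others were *Cd5* (at background in adipose tissue), *Cxcr5* (1.01, adjusted p = 0.644) and *Cd79b* (0.59, adjusted p = 0.618, and 0.24 with arrays scaled to their median). The difference was above 0 in 16 of 23 T cell genes and in 3 of 11 B and plasma cell genes. The share over all probes was not computed, so these counts are not read as a result about the genes. Over all probes the median change was 0.003 in lung and −0.15 in adipose tissue.

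Most lymphocyte genes gave a higher signal in lung than in adipose tissue in the same rat. Of the T cell genes, 15 of 23 were higher in lung in all 8 rats, with a median difference of 2.00. *Tbx21* was lower in lung in all 8 rats. Its probe averaged 4.93 in lung and 6.18 in adipose tissue, beside 2.39 and 0.05 for *Cd3d*. Of the B and plasma cell genes, 7 of 11 were higher in lung in all 8 rats, with a median difference of 2.51, and *Pax5* and *Xbp1* were lower in all 8. The *Pax5* probe averaged 0.01 in adipose tissue, where *Cd79b* averaged −2.92. Whether the *Tbx21* and *Pax5* probes measure the mRNA of these genes was not tested. Of 16484 genes by their brightest probe, 19.6% were higher in lung in all 8 rats and 28.9% were lower. With quantile normalization the counts were 16 and 7, beside 22.8% of all genes, and with arrays scaled to their median or to *Gapdh* and *Hprt1* *Xbp1* was higher in lung in 1 rat. These differences are given as a description, since each tissue was on its own slide.

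**Figure D5:**
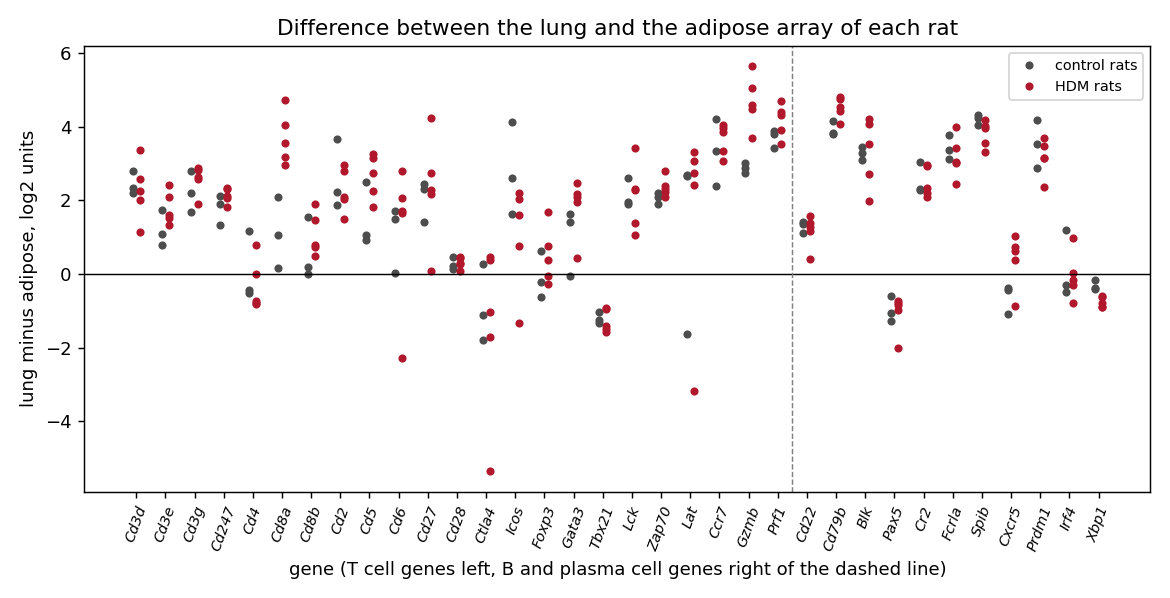
Lung minus adipose log2 signal of the same rat for the 34 genes (gray, 3 control rats; red, 5 HDM rats), with T cell genes to the left and B and plasma cell genes to the right of the dashed line. Most points lie above 0, while *Tbx21*, *Pax5* and *Xbp1* lie below it in all 8 rats on this scale.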

How the data were processed

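Each of 8 rats gave a lung and an adipose array, 16 in all, and each array was assigned to its rat and tissue from its label. For each array the authors deposited spot intensities (Agilent Feature Extraction 12.0.3.1, background-subtracted, no scaling between arrays), with outlier and background marks. The authors deposited a table of log2 values as well (GeneSpring GX 15.5, per the labels), which came within 0.1 of the intensities (log2, 75th percentile subtracted, centered per probe) in 99.97% of lung and 99.85% of adipose cells. It was used as an alternative.

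Control probes and outlier spots were removed, spots of a probe were averaged as log2 intensity, and the 75th percentile of each array was subtracted. HDM and control rats were compared per tissue with limma 3.58.1 in R 4.3.3 (data.table version 1.17.8, jsonlite 2.0.0), with Benjamini–Hochberg adjustment over all 45598 probes. A call needed an adjusted p below 0.05 and a fold change above 1.5, the thresholds of the methods, whose unpaired test is an alternative. The scripts were tested on simulated data. Nothing was filtered on signal. Plots used Python 3.11.15 and matplotlib 3.10.9.

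Symbols came from RefSeq accessions of the array design (GRCr8 gene table). Of the 34 genes, 9 had more than 1 probe, with the same sign of change in 6 of 9 in lung and 5 of 9 in adipose tissue. The genes and lists were chosen with earlier results of these data known, so lists carry counts and medians and no test. Values of each rat are given for the CD3 chains, *Cd4*, *Cd8a*, *Cd79b* and, per tissue and class, the 3 highest and 3 lowest changes among genes well above background on at least 4 arrays. *Cd8b* and *Lat* and *Cd6* in adipose tissue were named after their values were seen. List genes are named where called and otherwise by the 3 highest and lowest, of which 1 is not reported here. The number of arrays limits the precision. Between 62.1% and 68.8% of lung probes and 50.5% and 60.3% of adipose probes were well above background. The alternatives were other normalizations, background correction (normexp with an offset of 50), dim-probe filters, array weights, slide row, single rats left out, the replicate number as a block and a joint fit. With the slide row as a block, each difference rests on HDM rat 5 alone against the control rats. Rat numbers of the HDM and control groups name different animals and do not pair them.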

Additional observations from a re-analysis of the deposited data

Results flagged for a closer look

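In 10 of 68 groups of 5 HDM rats (34 genes in 2 tissues), 1 rat lay far from the other 4, 3 times in lung and 7 times in adipose tissue. The rule flags about 1 in 20 independent groups drawn from a normal distribution, and genes that share an array are not independent. The share over all genes was not computed, so this count is not read as a result about these genes. In lung these were *Ctla4* in HDM rat 4 (−6.86, others −6.11 to −5.99, all at background), *Ccr7* in HDM rat 1 (−2.79, others −2.50 to −2.40) and *Prdm1* in HDM rat 3 (−1.61, others −0.96 to −0.72).

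In adipose tissue HDM rat 2 stood apart in 4 genes. They were *Ctla4* (−0.72, others −6.50 to −4.95), *Prf1* (−1.53, others −1.90 to −1.80), *Pax5* (0.94, others −0.26 to −0.14) and *Cxcr5* (0.43, others −1.57 to −1.13). Its array had the most outlier spots of all (1224) and the lowest share of probes well above background (50.5%), and the part of either in these values was not tested. By the probes used, HDM rat 1 stood apart in *Cd6* (3.19, others −1.62 to −0.89), *Lat* (3.31, others −3.03 to −2.31) and *Irf4* (−1.11, others 0.01 to 0.39). Control rat 1 had an *Irf4* level of −1.21, and these were the 2 adipose arrays with the highest epithelial markers. The other *Cd6* probe differed by 0.02 between the groups, and the other *Irf4* probe was well above background on no adipose array.

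The change of *Cd8a* with HDM went up in lung and down in adipose tissue in every rat against the control rats, and the 2 changes differed by 2.59 log2 units, which did not pass the test of the difference (adjusted p = 0.346).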

How the results depend on the processing

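With 5 HDM and 3 control rats the number of arrays is the main limit, and in adipose tissue 5 of the 34 genes were at background. The genes and tissues at background in a group (7 of them) are left out below. Of 1399 recomputed gene values, 132 had the opposite sign, in 37 of 66 genes and tissues, the 5 named differences between the tissues included. In 123 of the 132 the change itself was within its SE of 0, so that its direction was not resolved, and in 9 it was larger. In lung *Cd79b* passed the test in 3 alternatives, and no other call changed. Accordingly 1 gene was called in lung with quantile normalization, 1 with normexp and 1 with array weights, and none in adipose tissue or between the tissues under any alternative. The lung T cell median (0.07) became 0.013 with arrays scaled to their median, −0.044 with scaling to *Gapdh* and *Hprt1* (all probes −0.11), 0.11 with array weights, 0.12 with the slide row as a block and 0.14 with the mean of all probes of a gene. With single rats left out it lay between 0.036 and 0.12. The lung B and plasma cell median (0.03) became −0.080 with *Gapdh* and *Hprt1* and 0.22 with the slide row as a block. In adipose tissue the T cell median (−0.28) became −0.051 with quantile normalization, 0.014 with scaling to the median, −0.036 with normexp and −0.054 without HDM rat 1 and control rat 1 (chosen after seeing the data), and lay between −0.41 and −0.066 with single rats left out, the latter without control rat 1. The B and plasma cell median (0.19) became 0.49 with scaling to the median. With the replicate number as a block it was −0.048, and no gene was called in either tissue. Same-numbered rats correlated between −0.08 and 0.59 in their deviations, and not every rat correlated best with its own number. With quantile normalization, the sign in lung turned for *Zap70* (0.022) and *Lat* (0.0032). With scaling to the median, the sign in lung turned for *Cd3d* (−0.041), *Cd28* (−0.043) and *Irf4* (−0.022). With scaling to *Gapdh* and *Hprt1*, the sign in lung turned for *Cd3d* (−0.098), *Cd3g* (−0.055), *Cd247* (−0.050), *Cd2* (−0.044), *Cd6* (−0.039), *Cd28* (−0.10), *Icos* (−0.013) and *Irf4* (−0.080). With normexp, the sign in lung turned for *Cd3e* (−0.00014), *Cd5* (0.057), *Cd28* (−0.028), *Foxp3* (−0.021), *Zap70* (0.0077), *Lat* (0.0016) and *Spib* (0.041). With array weights, the sign in lung turned for *Cd8b* (0.021), *Cd27* (0.013), *Lat* (0.0041) and *Pax5* (0.024). With the slide row as a block, the sign in lung turned for *Cd3d* (−0.13), *Cd247* (−0.015), *Zap70* (0.12), *Pax5* (0.12), *Cr2* (0.11) and *Spib* (0.22). With the replicate number as a block, the sign in lung turned for *Cd5* (0.076), *Cd28* (−0.062), *Lat* (0.038), *Prf1* (−0.044) and *Fcrla* (0.0086). With the mean of all probes, the sign in lung turned for *Cd6* (−0.071) and *Cd27* (0.14). With single rats left out, the values in lung spanned 0 for *Cd3d* (−0.040 to 0.067), *Cd8b* (−0.074 to 0.028), *Cd5* (−0.073 to 0.070), *Cd6* (−0.00086 to 0.14), *Cd27* (−0.13 to 0.058), *Cd28* (−0.096 to 0.14), *Tbx21* (−0.13 to 0.010), *Zap70* (−0.046 to 0.052), *Lat* (−0.030 to 0.013), *Pax5* (−0.096 to 0.16), *Spib* (−0.21 to 0.072) and *Irf4* (−0.043 to 0.099). With quantile normalization, the sign in adipose tissue turned for *Cd27* (0.077), *Foxp3* (0.18), *Tbx21* (−0.016) and *Cd79b* (0.22). With scaling to the median, the sign in adipose tissue turned for *Cd3g* (0.014), *Cd247* (0.017), *Cd6* (0.24), *Cd27* (0.014), *Cd28* (0.27), *Zap70* (0.0022) and *Cd79b* (0.27). With scaling to *Gapdh* and *Hprt1*, the sign in adipose tissue turned for *Tbx21* (−0.025). With normexp, the sign in adipose tissue turned for *Cd6* (0.083), *Cd27* (0.045), *Tbx21* (−0.036) and *Cd79b* (0.056). With array weights, the sign in adipose tissue turned for *Cd3d* (−0.032), *Cd28* (0.077) and *Pax5* (−0.13). With the slide row as a block, the sign in adipose tissue turned for *Cd28* (0.21), *Foxp3* (0.50), *Lck* (−0.93) and *Pax5* (−0.11). With the replicate number as a block, the sign in adipose tissue turned for *Cd6* (0.47), *Tbx21* (−0.11), *Lat* (0.22), *Fcrla* (−0.051) and *Irf4* (−0.060). With the mean of all probes, the sign in adipose tissue turned for *Irf4* (−0.24). Without HDM rat 1 and control rat 1, the sign in adipose tissue turned for *Cd3d* (−0.021), *Cd3g* (0.050), *Cd2* (−0.047) and *Cd27* (0.0032). With single rats left out, the values in adipose tissue spanned 0 for *Cd3d* (−0.095 to 0.41), *Cd3g* (−0.59 to 0.011), *Cd247* (−0.49 to 0.0096), *Cd2* (−0.19 to 0.71), *Cd6* (−0.92 to 0.45), *Cd27* (−0.90 to 0.24), *Cd28* (−0.088 to 0.044), *Tbx21* (−0.056 to 0.099), *Lck* (−0.038 to 0.51), *Lat* (−1.63 to 1.00), *Cd79b* (−0.093 to 0.022), *Pax5* (−0.13 to 0.17), *Fcrla* (−0.020 to 0.26) and *Irf4* (−0.25 to 0.52). The changes of *Cd8a* and *Gzmb* in adipose tissue went from −2.05 and −1.37 to −0.42 and −0.19 with normexp, and no direction of the 5 named differences between the tissues turned. The normexp setting adds an offset of 50, which narrows log2 differences of dim signals such as these, and its share in the smaller values was not tested. The causes were not tested.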

Other observations

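*Derl3*, a gene of protein disposal in secretory cells that was on the list of other B and plasma cell genes, separated the groups in lung and 2 rats in adipose tissue. In lung it was at −0.65, −0.34, −0.40, −0.79 and −0.40 in HDM rats and at 0.28, 0.12 and 0.34 in control rats, with every HDM rat below every control rat. In adipose tissue it was at 5.28 in HDM rat 1 and 4.92 in control rat 1, and between 0.10 and 0.88 in the other 6 rats. These are the same 2 arrays that were high in *Lat*, *Cd6* (by the probe used) and the epithelial markers.

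Of the 17 lymphoid chemokines and cytokines, 9 were higher in HDM adipose tissue (median 0.02, none past the test). *Cxcl9* was at the upper end (0.48, adjusted p = 0.742), and *Il2*, *Il21* and *Ccl20* were well above background on none of the 8 arrays.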
